A study of Mus musculus with 32 samples.

Results

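IGF2BP3 is an RNA-binding protein of fetal tissues that is re-expressed in MLL-rearranged leukemia, and eCLIP maps the RNA positions to which it is crosslinked. The regions described here are IGF2BP3 eCLIP peaks that were found in all 3 biological libraries of Lin- cells and had no counterpart in CD11b+ cells. A peak of Lin- biological replicate 1 was a member if it overlapped, by at least 1 nt on the same strand, a peak of replicate 2 and a peak of replicate 3, all from the peak sets that the authors had filtered against size-matched input (smInput). It also had to overlap no unfiltered eCLIP peak of any of the 4 CD11b+ libraries. Of the 7361 filtered peaks of replicate 1, 837 met this rule (11.4%), at 831 distinct regions on 507 host genes. A host gene is the gene whose identifier the authors attached to the peak. These 837 peaks are called Lin- only sites, and the absence of a CD11b+ peak, the reproducibility and the strength that reproducibility requires were used to choose them and are described without a test.

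Both cell types carried the MLL-Af4 fusion. Lin- cells were lineage-depleted bone marrow cells of C57BL/6J mice that had been spin-infected with an MSCV-MLL-FLAG-Af4 retrovirus, selected in G418 and cultured with cytokines that included FLT3, IL-6 and SCF. The CD11b+ population came from mice with MLL-Af4 leukemia by selection on CD11b, a surface integrin of myeloid cells. All eCLIP libraries were from cells with intact *Igf2bp3* (WT/MLL-Af4), with 3 biological and 3 technical libraries of Lin- cells and 2 biological and 2 technical libraries of CD11b+ cells, each with an smInput library. The labels do not say which biological library a technical library repeats. RNA levels are the authors' mean normalized counts, 1 value per gene and cell type over 6 RNA-seq libraries, 3 of WT/MLL-Af4 and 3 of I3KO/MLL-Af4 cells, the latter with a germline deletion of *Igf2bp3* exon 2. Because the tables of the cell types were normalized separately, levels were set side by side as percentiles within each table. Transformed cells in culture and leukemic cells from animals also differ in growth conditions, which cannot be told apart here from the cell type.

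IGF2BP3 binds single-stranded RNA through RNA recognition motifs and KH domains and is known for CA-rich and GGAC-containing targets, often in 3′ UTRs, where it is associated with the stability of the transcript. Sites inside introns can be reached only before an intron is removed. An intron ends in a pyrimidine-rich stretch and an AG dinucleotide at the 3′ splice site, and the exon starts with the next base.

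The sequences that recur below are those at the ends of introns, since most Lin- only sites outside *Kmt2a* and *Aff1* lay there. Each line gives the last 24 bases of the intron and the first 6 bases of the exon at a Lin- only site, 5′ to 3′ in GRCm38 (mm10), with the terminal AG of the intron in capitals.
Ptbp1, chr10:79859578-79859607, + strand: gagttcacacatcctctcttgcAGatcttc
Hnrnpu, chr1:178331949-178331978, - strand: tggcgcttctttttctcactgtAGgttgta
Srrm2, chr17:23811615-23811644, + strand: agctttgtggtggttttccttcAGgtctcg
Tra2b, chr16:22248490-22248519, - strand: ttactcctttttctgtctttacAGaggagg
Rbm39, chr2:156167586-156167615, - strand: ttgtgaaactttttatccttgcAGcagaag
Mki67, chr7:135704790-135704819, - strand: tcataaatgactctgccttgtcAGgaacgg
Mcm5, chr8:75121188-75121217, + strand: ctgatagacaaactctcaatgcAGatgcgg
Macroh2a1, chr13:56074387-56074416, - strand: tgaccactatgctctctcctacAGgaacgg
Kit, chr5:75652733-75652762, + strand: gatttgccacctctctgcacccAGgaagca
Flt3, chr5:147375753-147375782, - strand: ccagtcctctttctcattccgcAGaggaat
Cd69, chr6:129270183-129270212, - strand: gacaaatgtcctttctgtccacAGtgggca
Hoxa9, chr6:52224477-52224506, - strand: cccagtgtctctctccctccgcAGataacc

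Depth was taken as the deduplicated reads that the peak caller placed in unfiltered peaks, with no estimate of its error. It was 349650, 711782, 230808, 188031, 437130 and 137856 reads in Lin- libraries 1 to 6 (1 to 3 biological, 4 to 6 technical) and 208689, 428244, 182385 and 264613 in the CD11b+ libraries (the first pair biological). Lin- libraries 2 and 5 stood apart from the other 4. Outside *Kmt2a* and *Aff1*, 54.7% and 51.8% of their filtered peaks lay in introns, against 74.6% to 80.5% in the others, and 13.8% and 12.7% lay in coding exons, against 2.30% to 5.40%. Of 11 immature-cell markers, 7 had the higher percentile in the Lin- table, and of 15 mature myeloid markers, 13 had the higher percentile in the CD11b+ table. *Itgam*, which encodes CD11b itself, had a mean normalized count of only 17.0 (percentile 41.9) in the CD11b+ table and was not listed in the Lin- table. The summed level of the 5 erythroid markers, globins included, was 180 in Lin- and 3624 in CD11b+ cells, that of the 5 mast cell and basophil markers 5991 and 1877, and that of the 5 lymphoid markers 157 and 366. The part of these cells in the results was not tested.

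The Lin- only sites fell into 2 groups of unlike shape. The genes joined in the fusion, *Kmt2a* (which encodes MLL) and *Aff1* (which encodes Af4), held 246 sites. The other 591 sites were spread over 505 genes, with 439 of the 507 hosts holding 1 site, 51 holding 2 and 17 holding 3 or more. Sites on *Kmt2a* and *Aff1* had a median length of 7 nt, and the others 57 nt (quartiles 49 and 65). The number of reads in replicate 1 was similar, with a median of 8 in both groups. All reads are counted against the mouse genome, so RNA of the retroviral fusion and of the endogenous genes cannot be told apart.

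*Aff1* (ENSMUSG00000029313, chr5:103692374-103855322, + strand), whose product belongs to a family of transcription elongation factors, held 213 Lin- only sites. Every one of them lay in a coding exon, between positions 1111 and 3626 of the 3678-nt coding sequence and in exons 5 to 20 of 20. Exon 11 held 104 of the sites, exon 10 held 27, exon 13 held 26 and exon 19 held 16. The sites were fragments of nearly continuous coverage, since 177 were 10 nt or shorter, 164 touched the next one, and together they covered 1748 nt. Filtered *Aff1* peaks numbered 253, 320, 225, 130, 336 and 121 in the 6 Lin- libraries and 3, 6, 0 and 3 in the 4 CD11b+ libraries. The groups did not overlap, and the highest CD11b+ library was far below the lowest Lin- library. The peaks of the biological Lin- libraries and of the CD11b+ libraries also served to choose the sites, so this separation is described and not tested. The share of all genes with a peak whose counts separate in this way was not computed. No *Aff1* peak of a Lin- library was centred before position 1080 of the coding sequence. The technical libraries, which the rule did not use but which are not new biological samples, held all 213 sites at least once and 180 of them in all 3 libraries. In the RNA-seq tables *Aff1* was at a mean normalized count of 22792 (percentile 99.7) in Lin- and 15348 (percentile 99.5) in CD11b+ cells. Percentiles change little near the top, and the part of RNA level in the number of peaks was not tested. The inputs held 0 to 5 *Aff1* peaks in Lin- and none in CD11b+ cells.

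*Kmt2a* (ENSMUSG00000002028, chr9:44803355-44881296, - strand), a histone H3 lysine methyltransferase gene, held 33 Lin- only sites. Of these, 32 lay in the coding sequence, between positions 1 and 4051 of 11898 nt and in exons 1 to 8 of 36, and 1 lay in the 5′ UTR. Exon 3 held 18 and exon 4 held 11. Filtered *Kmt2a* peaks numbered 68, 118, 33, 47, 111 and 28 in the Lin- libraries and 6, 27, 7 and 18 in the CD11b+ libraries. The lowest Lin- library had 1 peak more than the highest CD11b+ library, so the separation was much narrower than for *Aff1*, and the same limits hold. CD11b+ peaks in the coding sequence ended at position 2626, in exon 3, whereas Lin- peaks reached position 4192. *Kmt2a* was at a mean normalized count of 10973 (percentile 98.8) in Lin- and 3710 (percentile 95.7) in CD11b+ cells. All 33 sites were found in at least 1 technical library, and 28 of them in all 3.

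**Figure D1:**
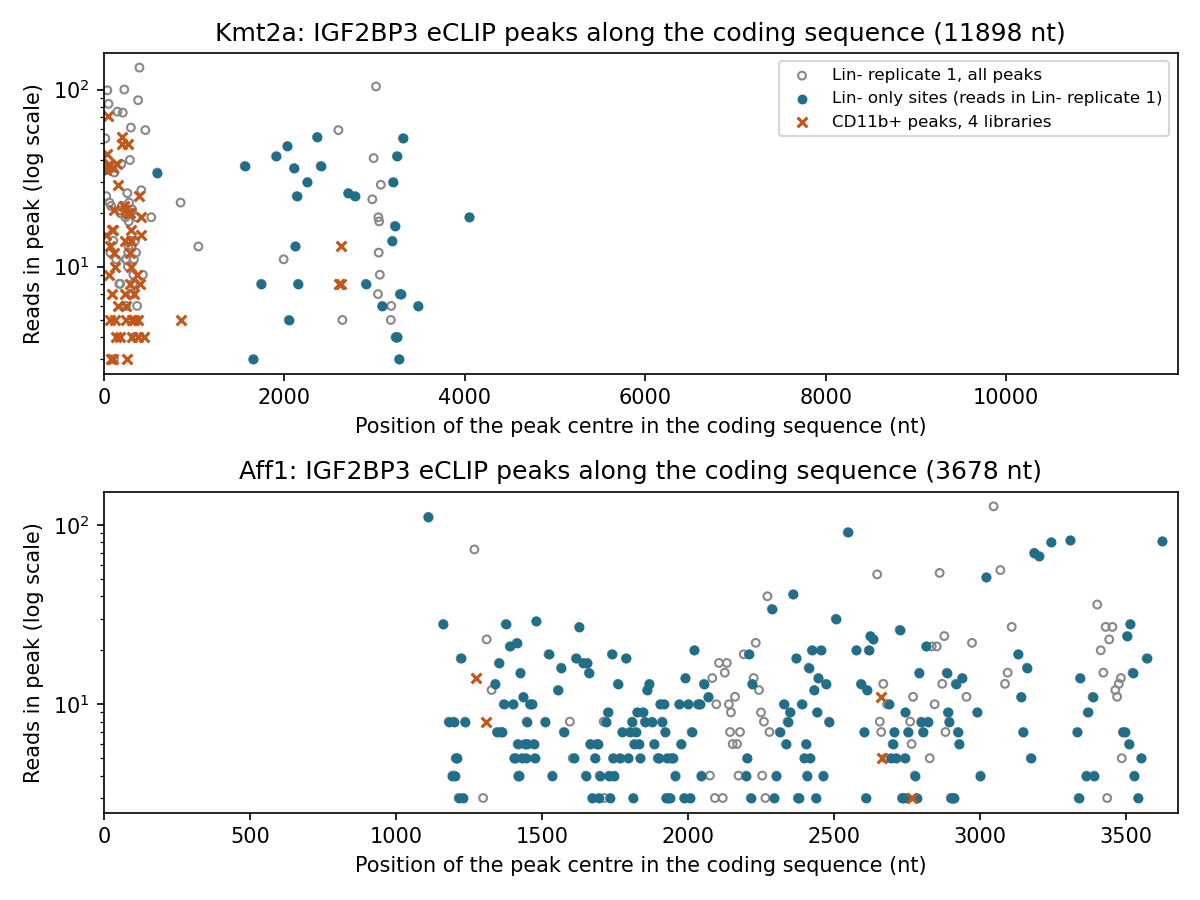
Reads in a peak (log scale) against the position of the peak centre in the coding sequence (nt) of *Kmt2a* and *Aff1*, for Lin- only sites, all Lin- replicate 1 peaks and the peaks of the 4 CD11b+ libraries. Lin- only sites lie up to position 4051 of *Kmt2a* and from position 1111 of *Aff1*, and few CD11b+ crosses lie on *Aff1*.

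A stretch of each gene carries a CA-rich run, shown in capitals, because such runs are otherwise rare among the Lin- only sites.
Aff1, chr5:103815009-103815038, + strand: ctgacagccatACACACACccagtacagcc
Kmt2a, chr9:44848799-44848828, - strand: ggcatctctgacCACACACcttggcttatg

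Outside these genes the Lin- only sites were mainly intronic. By the centre of the peak, 72.3% of the 591 lay in introns (95% Wilson interval 68.5% to 75.7%), 8.29% in coding exons, 8.12% in 5′ UTRs (6.18% to 10.6%), 6.94% in noncoding exons and 3.55% in 3′ UTRs. All 837 sites divided into 51.0% intronic, 35.1% coding, 5.85% 5′ UTR, 4.90% noncoding exon and 2.51% 3′ UTR. Among all filtered peaks of replicate 1 the same shares were 77% intronic, 7.2% coding, 2.43% 5′ UTR, 11% noncoding exon and 2.15% 3′ UTR. The 1096 reproducible sites that did overlap a CD11b+ peak (shared sites, on 772 genes) were 56.3% intronic and 32.3% in noncoding exons, with 2.74% in 5′ UTRs and 3.92% in 3′ UTRs. A position in a 3′ UTR, for which the protein is best known, was therefore uncommon in every one of these sets. The interval covers counting error only, since sites are not replicates. When a peak was assigned by any of its bases, with exons first, 76.2% of the 837 sites touched a coding exon and 10.4% were purely intronic, because the intronic sites lay against exons.

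**Figure D2:**
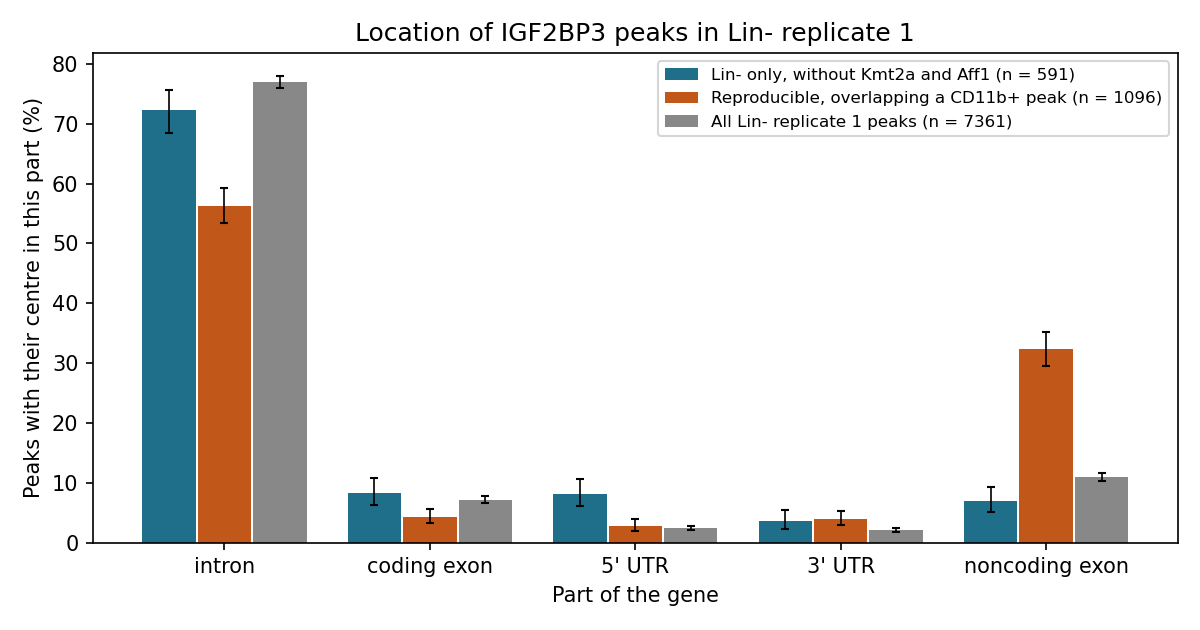
Share of peaks (%) with their centre in each part of a gene, for Lin- only sites outside *Kmt2a* and *Aff1*, shared sites and all filtered peaks of Lin- replicate 1, with 95% Wilson intervals as bars. Noncoding exons hold 6.94% of the Lin- only sites and 32.3% of the shared sites, and 5′ UTRs hold 8.12% and 2.74%.

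The comparison was repeated inside each biological library, between all filtered Lin- peaks without and with a CD11b+ overlap. Peaks without the overlap were less often in noncoding exons (mean difference -20.8 percentage points ± 4.21, SD, n = 3 libraries) and carried a CA-rich 6-mer less often (-9.01 ± 3.42). They were also less often in 3′ UTRs (-1.97 ± 0.945). They were more often in coding exons (11.1 ± 8.32), and this difference was 7.51 ± 8.56 without *Kmt2a* and *Aff1*. Each of these differences had the same direction in all 3 libraries, with p = 0.25 in the exact two-sided sign-flip permutation test, which is the smallest p that 3 libraries allow. The differences for introns (8.23 ± 13.9) and 5′ UTRs (3.62 ± 4.60) changed sign between libraries (p = 0.5, exact sign-flip permutation test). The p-values measure only the spread between these libraries.

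Of the 427 intronic Lin- only sites, 307 contained a 3′ splice site (71.9%, 95% Wilson interval 67.5% to 76.0%), that is, they ran from the intron into the exon. Among all intronic peaks of replicate 1, 56.3% did so, and among the intronic shared sites 35.5% (219 of 617). The centre of the peak was within 100 nt before a 3′ splice site for 83.4% of the intronic sites, at a median of -20 nt from the first exon base (quartiles -25 and -17). Among all intronic peaks of replicate 1 this share was 73.7%, at a median of -21 nt (quartiles -26 and -17). Among the intronic shared sites it was 44.4%, also at a median of -21 nt, so the median position was much the same in all of these sets. Of the intronic Lin- only sites, another 33 held only a 5′ splice site and 87 held neither. All 307 introns ended in AG, and a median of 72.7% of the last 22 intron bases before it were pyrimidines, the same median as for shared sites and for all peaks. In the middle 30 bases of these 307 sites, only 2 matched the genome at more than 1 place.

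The share of intronic peaks with a 3′ splice site was also compared within libraries. It was 28.6, 13.7 and 19.4 percentage points higher for peaks without a CD11b+ overlap than for peaks with one in biological libraries 1, 2 and 3, a mean of 20.6 ± 7.49 (SD, n = 3, p = 0.25 in the exact sign-flip permutation test, the smallest possible). In the technical libraries 4, 5 and 6 it was 29.8, 21.1 and 21.8 points higher. Over all 6 libraries the mean was 22.4 ± 5.99 (p = 0.0312, exact sign-flip permutation test, the smallest that 6 libraries allow). The test was chosen after the data were seen. Technical libraries are not new biological samples, so the p-value over all 6 libraries cannot be read as evidence from 6 samples. The share of Lin- only sites with a 3′ splice site depended on whose peak was counted, since it was 62.1% with the overlapping peaks of replicate 2 and 65.4% with those of replicate 3. Without replicate 1, where the rule then needs only replicates 2 and 3, it was 49.0%.

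**Figure D3:**
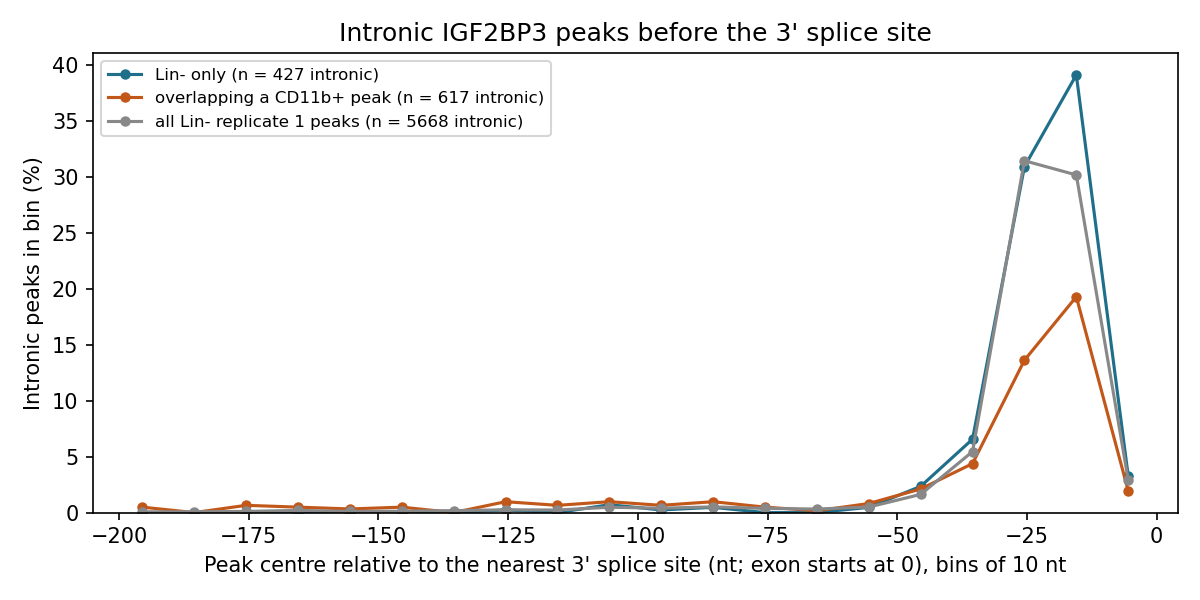
Share of intronic peaks (%) in bins of 10 nt by the distance of the peak centre from the nearest 3′ splice site, where the exon starts at 0, for Lin- only sites, shared sites and all filtered Lin- replicate 1 peaks. Of the intronic Lin- only sites, 83.4% lie within 100 nt before the exon, at a median of -20 nt. The same holds for 73.7% of all intronic peaks and 44.4% of the intronic shared sites, both at a median of -21 nt.

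Transcripts of splicing factors and hnRNPs, proteins that bind pre-mRNA and help to choose its exons, were frequent hosts. Of 37 genes of this list with a replicate 1 peak, 21 hosted a Lin- only site (56.8%), beside 13.2% of all 3855 genes with a peak. They held 30 sites, of which 27 were intronic, and 24 of those contained a 3′ splice site. Shared sites occurred on 27 of the 37 genes, so nothing here sets Lin- only sites apart from shared ones in this list. In what follows, reads in the peak that overlaps a site are given in the order of Lin- libraries 1 to 6, and 0 means that no peak of the library overlapped it. *Ptbp1*, which encodes the polypyrimidine tract-binding protein, held 3 intronic sites. The one with most reads (chr10:79859549-79859612) had 101, 24, 6, 45, 19 and 18 reads, with the sequence shown above. The others had 24, 19, 3, 12, 8 and 0 reads (chr10:79859304-79859362) and 24, 29, 13, 21, 14 and 13 reads (chr10:79863087-79863150). Library 1 held the most reads at 2 of the 3 sites, and library 2 at the other.

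*Hnrnpu*, which encodes a nuclear scaffold and RNA-binding protein, had 36, 15, 9, 23, 6 and 3 reads at its only site (chr1:178331951-178332004). *Srrm2*, a large splicing coactivator, had 31, 8, 8, 27, 10 and 5 reads (chr17:23811590-23811653), with a CD11b+ peak 67 nt away. *Rbm39* held 2 sites, with 35, 7, 4, 13, 6 and 0 reads at the stronger one (chr2:156167573-156167645). In each of these genes library 1 had the most reads and biological library 3 no more than 9. *Hnrnpa3*, *Hnrnpl* and *Srrm1* held 3, 3 and 2 sites, and the 15 list members with 1 site each included *Srsf1*, *Srsf2*, *Srsf3*, *Hnrnpa1*, *Hnrnpk* and *Prpf8*. *Srsf1* was an exception in place, its site being in the 3′ UTR (4, 8, 4, 0, 0 and 0 reads). The host RNAs were abundant in both cell types, with *Tra2b* lowest in the list (percentile 90.0 in Lin- and 92.6 in CD11b+) and *Srrm2* at percentile 99.9 and 99.3.

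Genes of the cell cycle and DNA replication hosted 7 sites on 7 of 20 genes with a peak (35.0%). *Mki67*, the proliferation marker, had 24, 8, 10, 16, 4 and 3 reads at an intron end (chr7:135704778-135704845). *Mcm5*, a subunit of the replicative helicase, had the most even values, 13, 13, 10, 10, 11 and 7 (chr8:75121163-75121234). *Top2a*, which encodes a topoisomerase, had 22, 4, 3, 10, 0 and 0 reads and *Mcm3* 21, 11, 4, 16, 0 and 4. *Rrm2* (a ribonucleotide reductase subunit) and *Pcna* (the sliding clamp of DNA polymerases) had sites in the first part of the mRNA instead, which are described with the 5′ UTR sites. No CD11b+ library held a peak anywhere on *Rrm2*, and its RNA was at percentile 94.4 in Lin- and 92.6 in CD11b+ cells.

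Among MLL target genes and stem cell transcription factors, 7 of 22 genes with a peak (31.8%) hosted 9 sites. *Hoxa9*, a homeobox gene that MLL fusions are known to activate, held 2 sites, 1 at an intron end (5, 4, 18, 0, 4 and 0 reads) and 1 in a coding exon (13, 7, 6, 0, 0 and 3 reads). CD11b+ peaks lay 132 and 75 nt from them. *Ikzf1*, which encodes the Ikaros zinc finger protein, also held 2, with 6, 8, 4, 7, 0 and 11 reads at the one by the 3′ splice site. *Myc* had 4, 9, 4, 0, 0 and 0 reads in its intron, and no technical library repeated it. *Runx1* had 10, 9, 15, 8, 17 and 24 reads at a site deep inside an intron. The gene also held 46 peaks over the 4 CD11b+ libraries. *Lmo2*, *Dusp6* and *Runx3* held 1 site each.

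The surface receptors *Kit*, *Flt3* and *Cd69* were 3 of 9 listed receptors with a peak (33.3%), and each held 1 site that crossed a 3′ splice site. *Kit*, the stem cell factor receptor, had 11, 5, 10, 0, 0 and 5 reads (chr5:75652643-75652768). *Flt3*, the FLT3 ligand receptor, had 13, 10, 3, 3, 0 and 0 reads (chr5:147375747-147375804). *Cd69*, an early activation antigen, had 24, 6, 11, 12, 5 and 17 reads (chr6:129270179-129270234) and was the only 1 of the 3 with a peak in all 3 technical libraries. No CD11b+ library held a peak anywhere on these 3 genes. Their RNA ranked lower there as well, with *Flt3* at percentile 98.4 in Lin- and 69.1 in CD11b+, *Kit* at 97.4 and 76.6 and *Cd69* at 76.9 and 65.1. *Kit* and *Flt3* are receptors of cytokines in the Lin- culture medium.

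Chromatin remodelers and histone modifiers hosted 15 sites on 10 of 40 genes with a peak (25%), and 9 of the 14 intronic ones contained a 3′ splice site. *Dnmt1*, the maintenance DNA methyltransferase, held 2 sites, with 15, 6, 7, 0, 0 and 0 reads and 6, 12, 7, 4, 0 and 0 reads. *Chd9*, a helicase gene, held 3 sites far from any splice site, with 92, 48, 38, 37, 41 and 21 reads at the highest (chr8:90890839-90890926). The middle bases of this site occur 4 times in the genome, and those of the other 2 sites 36 and 11 times. Reads at all 3 sites could therefore come from other copies. *Kmt2c* held 1 intronic site and 1 in the 5′ UTR (4, 27, 11, 0, 26 and 9 reads), and *Baz2b* held 2 at intron ends.

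The remaining lists held fewer sites. Ribosomal and translation genes held 7 sites on 5 of 23 genes (21.7%), among them *Rps2* with 41, 9, 6, 25, 0 and 0 reads at an intron end. PI3K, AKT and RAS signaling genes held 3 sites on 3 of 16 genes (18.8%), and of these *Pik3cd*, a PI3K catalytic subunit, had 23, 28, 23, 3, 21 and 4 reads. Of 10 elongation and MLL complex cofactors only *Ccnt2* hosted a site (10%), and of 6 oncofetal RNA-binding proteins and partners only *Elavl1* (16.7%). None of the 6 primary granule genes with a peak hosted one. Of 6 mature myeloid genes with a peak 3 did (50%), including *Spi1* with 3, 4, 3, 0, 0 and 0 reads and *Zeb2* with 9, 5, 7, 12, 0 and 3. The mast cell, erythroid and lymphoid lists had no gene with a replicate 1 peak. All list shares rest on few genes, and the lists and sites were chosen with earlier results known.

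Several genes outside the lists held 3 or more sites. *Ern1*, which encodes the stress sensor IRE1, held 4 sites, each before a different 3′ splice site, with 19, 14, 36, 0, 0 and 15 reads at the highest. Its nearest CD11b+ peak was at least 29950 nt from each of them. *Macroh2a1*, a gene of a histone variant, held 3, with 40, 33, 47, 16, 15 and 35 reads at the highest (chr13:56074376-56074441), the most reads of any site at an intron end in the lowest biological library. *Mtdh*, *Ddx5*, *Ewsr1*, *Akap13* and *Arhgef2* also held 3 sites each. *Zfp981*, a zinc finger gene, had 181, 183, 98, 96, 137 and 42 reads at one of its 3 sites, but the middle bases of that site occur 6 times in the genome.

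The technical libraries, which had no part in the rule, held 763 of the 837 sites at least once (91.2%, beside 54.3% of all filtered replicate 1 peaks) and 351 in all 3 libraries (41.9%, beside 15.1%). They are labelled technical and are not new biological samples, so this recovery is not independent of the choice of sites. All replicate 1 peaks include 5428 that were not reproducible, of which 40.2% were found at least once. Outside *Kmt2a* and *Aff1* these shares were 87.5% and 24.2%. Shared sites were found in 95.6% and 54.6%. In libraries 4, 5 and 6, 64.8%, 72.2% and 69.7% of the Lin- only sites were found, each lower than the 70.8%, 84.8% and 76.6% of the shared sites. The mean difference was -8.52 percentage points ± 3.56 (SD, n = 3, p = 0.25 in the exact two-sided sign-flip permutation test, the smallest possible), and -18.9 ± 3.67 without *Kmt2a* and *Aff1* (exact p = 0.25). Lin- only sites also held fewer reads in replicate 1, a median of 8 (range 3 to 215 outside *Kmt2a* and *Aff1*) against 11 for shared sites (3 to 647) and 6 for all peaks. The part of read number in the difference in recovery was not tested.

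Where 10 or more reads were required in a peak of each biological library, 78 sites on 74 genes were left outside *Kmt2a* and *Aff1*, and 54 of them were in all 3 technical libraries. The same requirement was met by 8.8% of all replicate 1 peaks. Those include 5428 that were not reproducible, so this share is no matched background for sites chosen as reproducible. Of these 78 sites, 48 were intronic (29 with a 3′ splice site), 11 coding and 9 in 5′ UTRs. *Dgkz*, a diacylglycerol kinase, had 36, 30, 28, 26, 11 and 14 reads, and *Srm*, which encodes spermidine synthase, had 34, 20, 30, 14, 20 and 16, both at intron ends. These genes were picked from the strong sites after their values were seen.

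The 48 sites in 5′ UTRs behaved differently between libraries from the intronic ones. Of them, 46 had more reads in biological library 2 than in library 1, and 40 had more in library 3 than in library 1, whereas of the 427 intronic sites 149 and 141 did. Their reads per 100000 reads in peaks were 126, 304 and 503 in libraries 1 to 3 and 79.2, 364 and 555 in libraries 4 to 6. Intronic sites with a 3′ splice site ran the other way in libraries 2 and 5, with 1114, 381 and 1214 in libraries 1 to 3 and 869, 282 and 936 in libraries 4 to 6. The 5′ UTR sites also were richer in G and C, with a median of 68.9% against 49.3% of bases. The share of 5′ UTR sites among Lin- only sites was 14.3% without replicate 1 and 3.69% without replicate 2, against 5.85% with all 3 libraries.

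**Figure D4:**
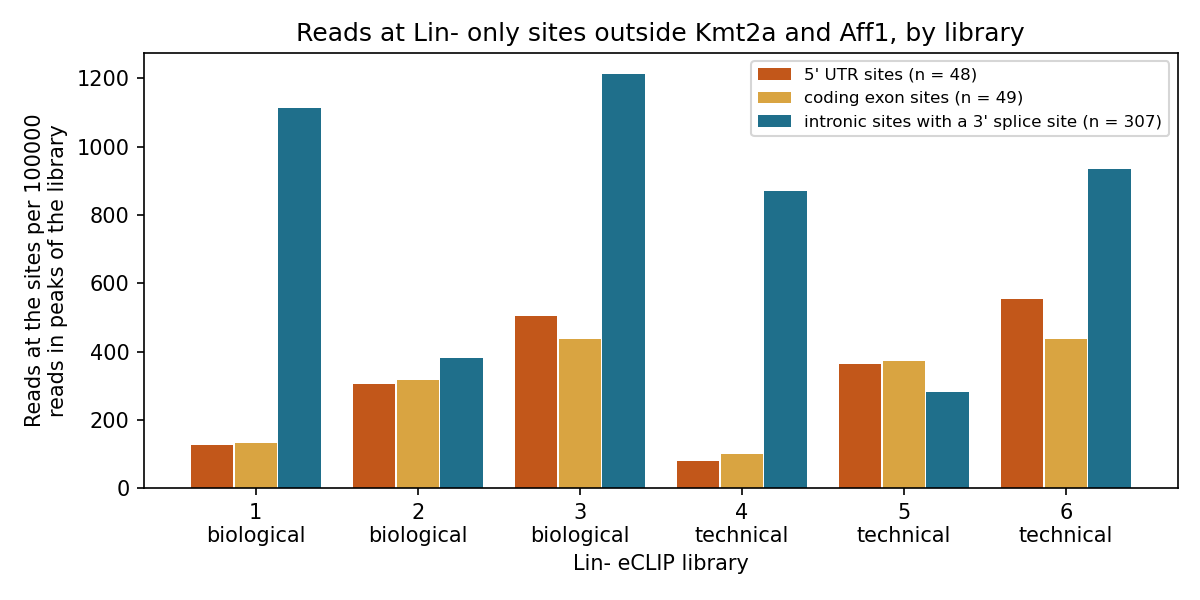
Reads at Lin- only sites outside *Kmt2a* and *Aff1* per 100000 reads in peaks of the library, for the 6 Lin- libraries and 3 kinds of site. Sites at intron ends are lowest in libraries 2 and 5 (381 and 282), and 5′ UTR sites are highest in libraries 3 and 6 (503 and 555).

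Examples of the 5′ UTR sites are shown with the 4 bases at the summit, as given by the peak caller, in capitals.
Elavl1, chr8:4324987-4325016, - strand: cgccgctaccgctACCGctaccgctctgcc
Pcna, chr2:132253118-132253147, - strand: tgtcgctgtaggcCTTCgctgccgcttctg

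*H3f3a*, which encodes a replication-independent histone H3, had 62, 4, 172, 25, 265 and 138 reads (chr1:180813482-180813559), with a CD11b+ peak 10 nt away. It was higher than any other 5′ UTR site in libraries 1, 3, 4, 5 and 6 and, with *Dpy30*, was 1 of the 2 sites with fewer reads in library 2 than in library 1. *B2m*, the light chain of MHC class I, had 29, 203, 68, 22, 101 and 81 reads (chr2:122147698-122147769). *Ubb*, a ubiquitin gene, had 20, 140, 52, 4, 89 and 28, although a CD11b+ peak lay 17 nt away. The middle bases of the *Ubb* site occur 3 times in the genome. Several hosts encode RNA-binding proteins themselves. *Elavl1* (the AU-rich element binding protein HuR) had 14, 84, 44, 13, 56 and 34 reads, *Pcbp1* (a poly(C)-binding protein) 5, 92, 64, 11, 76 and 43, and *Cnbp* 5, 74, 41, 0, 47 and 26. At each of these, libraries 2 and 5 had the most raw reads of the biological and of the technical libraries, and they were also the deepest of each kind. Scaled to reads in peaks, the 5′ UTR sites as a set were highest in libraries 3 and 6 instead (503 and 555 per 100000). No CD11b+ library held a peak anywhere on *Elavl1* or *Pcbp1*. *Tubb5*, a tubulin gene, had 6, 132, 33, 0, 67 and 15 reads and *Pcna* 4, 79, 28, 0, 47 and 23. *Rrm2* had a similar profile, 12, 117, 54, 0, 79 and 28, at a coding site in its first exon (chr12:24708332-24708389).

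Coding exons outside *Kmt2a* and *Aff1* held 49 sites. Histone genes, whose short intronless mRNAs are made in S phase, contributed to these: 14 of all 837 sites (1.67%) were on genes with a replication-type histone symbol, 12 of them in coding exons, 1 in a 3′ UTR and 1 on a pseudogene, beside 0.503% of all replicate 1 peaks (37) and 0.274% of shared sites (3). *H4c14* had 3, 85, 13, 0, 44 and 3 reads, and *H1f2* 9, 57, 16, 5, 19 and 9. Many histone genes have near-identical copies, and the middle bases of the *Hist1h2ap* and *H2bc11* sites occur 14 and 6 times in the genome, so their assignment is uncertain. The group was noticed in the data and not listed beforehand. Other coding sites were on *Mdh2*, a mitochondrial dehydrogenase gene, with 17, 79, 43, 15, 41 and 29 reads, and on *Sfpq*, an RNA-binding protein gene, with 15, 78, 29, 0, 56 and 19.

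Noncoding RNAs held few sites. The nuclear RNA *Malat1* held 7, more than any gene but *Aff1* and *Kmt2a*, all in its exon, with 22, 88, 44, 0, 27 and 29 reads at the highest. It also held 53 peaks over the 4 CD11b+ libraries, so the Lin- only sites were positions within an RNA that was bound in both cell types. *Mir17hg*, the host of the miR-17-92 cluster, had 6, 5, 6, 3, 6 and 0 reads at a site 2 nt from a CD11b+ peak. The snRNA genes held 9 sites of 122 replicate 1 peaks and processed pseudogenes 14 of 30 (0.408% of all peaks were on such genes), and all 14 pseudogene sites had more than 1 match of their middle bases in the genome. So did most of the snRNA sites, with 155 matches at the highest (*Gm24596*), and their assignment is uncertain. In all, 66 of the 837 sites (7.89%) had more than 1 such match, none of them on *Kmt2a* or *Aff1*.

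Of 34 replicate 1 peaks on microRNA genes, 6 were Lin- only and 20 were shared (0.462% of all peaks were on such genes). A microRNA is cut from a hairpin, and its seed, bases 2 to 8, pairs with targets. The arms that the 6 sites overlapped are printed from RefSeq (GRCm38.p6), with the seed in capitals.
miR-20a-3p: aCUGCAUUacgagcacuuaaag
miR-106b-3p: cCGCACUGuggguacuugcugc
miR-16-2-3p: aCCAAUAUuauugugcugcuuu
miR-330-3p: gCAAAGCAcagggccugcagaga
miR-33-5p: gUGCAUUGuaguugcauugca
miR-33-3p: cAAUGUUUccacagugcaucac
miR-1983: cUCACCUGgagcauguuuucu

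The 7 arms had 7 different seeds, and 5 of them were 3p arms. *Mir20a* had 3, 36, 14, 10, 24 and 4 reads (chr14:115044208-115044238), *Mir106b* 6, 5, 17, 7, 7 and 12 (chr5:138165746-138165771) and *Mir1983* 12, 25, 14, 9, 16 and 8, and these 3 were found in all technical libraries. The middle bases of the *Mir1983* site occur 3 times in the genome, so its assignment is uncertain. *Mir16-2* had 5, 16, 8, 0, 11 and 3 reads, *Mir33* 5, 10, 8, 0, 3 and 0 and *Mir330* 5, 10, 8, 0, 6 and 0. The last pair was found in 1 technical library each. The 5p arms of miR-20a and miR-106b, which these sites did not reach, share a seed.
miR-20a-5p: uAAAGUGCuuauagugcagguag
miR-106b-5p: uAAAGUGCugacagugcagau

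CA-rich 6-mers, ACACAC or CACACA on the strand of the peak, occurred in 2.63% of the Lin- only sites (22) and in 3.38% outside *Kmt2a* and *Aff1* (20, 95% Wilson interval 2.20% to 5.17%). They occurred in 7.12% of the shared sites (78) and 4.65% of all replicate 1 peaks. The motifs overlap each other, so a run of CA repeats counts once per site. GGACT or GGACA was in 5.38% of the Lin- only sites, 4.47% of the shared sites and 5.61% of all peaks. Outside *Kmt2a* and *Aff1*, whose sites had a median length of 7 nt, it was in 7.11% (42, 95% Wilson interval 5.30% to 9.47%). Peaks with more than 50% of their bases in repeats marked in the genome were 7.29% of the Lin- only sites (9.48% outside *Kmt2a* and *Aff1*). They were 29.7% of the shared sites and 18.1% of all peaks. An smInput peak of any library overlapped 6 Lin- only sites (0.717%), beside 6.66% of the shared sites and 4.05% of all peaks. *Maml3*, a Notch coactivator gene, held 2 intronic sites with a CA-rich run, and *Numa1* held 1. The *Maml3* site printed below lies wholly in marked repeats and 7 nt from a CD11b+ peak. Its middle bases occur 6 times in the genome, and those of the other *Maml3* site 4 times, so their assignment is uncertain.
Maml3, chr3:52008797-52008826, - strand: tacatactcatACACACACcacaccacacc
Numa1, chr7:102009257-102009286, + strand: ctaggctctgcCACACACACcctgtctgtc

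Most host genes were not silent in CD11b+ cells. Of the 507 hosts, 474 were in both RNA-seq tables, with a median percentile of 95.0 in Lin- and 92.8 in CD11b+ cells. Only 15 of 475 had a CD11b+ mean normalized count below 10 (3.16%, beside 4.74% of all genes with a replicate 1 peak). A CD11b+ peak lay elsewhere on 370 of the 507 genes (73.0%, beside 74.2% of the genes with a peak), so this share was close to the background. Hosts more than 20 percentile points higher in Lin- numbered 23 (4.85%, beside 3.29% of the genes with a peak and 7.29% of all genes), and 7 were more than 20 points lower (1.48%, beside 0.915%). Of these 7, 5 were processed pseudogenes. In bulk samples, fewer cells that express a gene and less RNA per cell cannot be told apart.

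Among the 116 hosts with levels and without any CD11b+ peak, 19 were more than 20 percentile points higher in Lin- (16.4%) and 5 were more than 20 points lower (4.31%). Over all genes with a replicate 1 peak these shares were 3.29% and 0.915%. The share among all such genes without a CD11b+ peak was not computed, so the 16.4% has no matched background. *Bcat1*, which encodes a branched-chain amino acid transaminase, had the largest difference, with a mean normalized count of 1316 (percentile 80.3) in Lin- and 0.941 (percentile 13.7) in CD11b+. *Gem*, a small GTPase gene, was at 3411 (92.7) and 8.74 (36.2), and *Bcl11a*, a transcription factor gene, at 3929 (94.0) and 44.5 (49.5). *Angpt1*, the ligand of the TIE2 receptor, was at 3989 (94.1) and 22.9 (44.4), yet had 5 peaks in CD11b+ libraries. The middle bases of the *Bcl11a* site occur 9 times in the genome and those of an *Angpt1* site 5 times, so their assignment is uncertain. A *Bcat1* site on a CA repeat had 5, 9, 5, 0, 0 and 0 reads, and no technical library repeated it. The absence of a CD11b+ peak on such genes came with a low RNA level there, and their part in the membership was not tested. For *Rrm2*, *Pcna*, the splicing factors and *Aff1* the level in CD11b+ cells was at percentile 92.6 or above. Percentiles change little near the top, and the part of RNA level at these genes was not tested either.

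**Figure D5:**
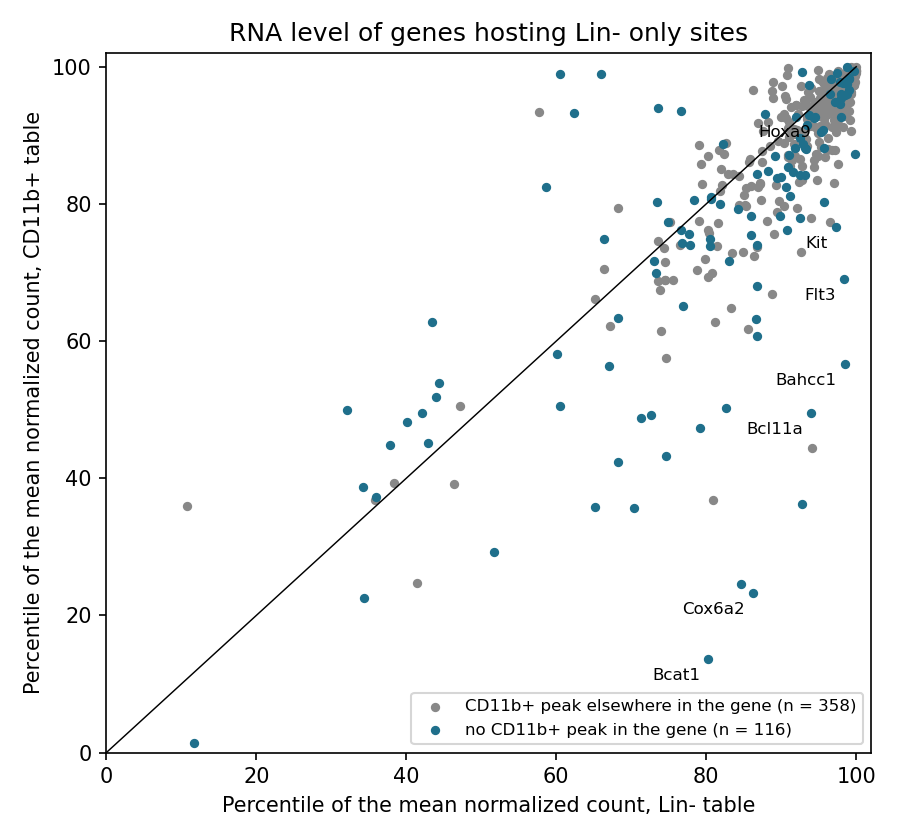
Percentile of the authors' mean normalized count of each host gene in the Lin- table (horizontal) and in the CD11b+ table (vertical), for hosts with and without a CD11b+ peak elsewhere. Most genes lie near the top right corner, and the 23 hosts more than 20 points higher in Lin- lie well below the diagonal.

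The edges of the rule were soft for a minority of sites. For 11 sites the smaller overlap with replicates 2 and 3 was 1 nt and for 163 it was 5 nt or less, with a median of 37 nt. Another 17 replicate 1 peaks without a CD11b+ overlap missed the rule by a gap of at most 5 nt, and 3 of these touched. A CD11b+ peak lay within 10 nt of 16 Lin- only sites, within 50 nt of 57 and within 200 nt of 112. In turn, 62 reproducible sites counted as shared by a CD11b+ overlap of 5 nt or less. Of all 1933 reproducible sites, 43.3% were Lin- only, and the mirrored rule for CD11b+ cells, which needs 2 libraries, gave 1631 sites.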

How the data were processed

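IGF2BP3 eCLIP and smInput libraries and RNA-seq tables of MLL-Af4 cells were analysed, grouped by the sample labels. The authors mapped reads to mm10 (STAR 2.5.3a per the labels), deduplicated them and called peaks per library, with or without removal of peaks that overlap smInput peaks. The deposited value of each peak was read as the peak caller's p-value (at most 0.05), and the third field of its name as its reads. Deduplication settings of eCLIP and smInput differed per the file headers. From the RNA-seq tables only the deposited mean normalized count (signal) was used. The fold changes, p-values, thresholds and FS1 columns are the authors' own comparisons of I3KO with WT and were not used. Per-library RNA-seq values were not analysed here.

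Overlaps, locations (GENCODE vM21 basic), splice sites and sequences (RefSeq GRCm38.p6) were computed with Python 3.11.15, pandas 2.3.3, NumPy 2.4.6 and SciPy 1.17.1, and the overlap code was tested on simulated peaks. Named genes are the 15 hosts with most sites, *Kmt2a*, *Aff1*, and listed genes that host a site. Other named genes were picked after their values were seen. Members and lists were chosen with earlier results of these data known. Intervals cover counting error only. Some hosts that met the naming rule are not reported here.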

Additional observations from a re-analysis of the deposited data

Results flagged for a closer look

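Of 35 groups of 4 to 10 libraries examined for a value far from the others, 2 held one, where chance gives about 1 in 20. Among the 6 Lin- smInput libraries, replicate 6 had peaks at 4 Lin- only sites and each of the others at 0. Among the 4 CD11b+ smInput libraries, replicate 2 had 18 reads in *Kmt2a* peaks and the others 3 to 4. Replicate 2 was also the deepest of these inputs, with 894140 reads in peaks.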

How the results depend on the processing

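With peaks of a p-value below 0.001 only, 395 sites on 194 genes were left. Leaving out 1 library at a time gave 867 to 1788 sites, the number being 1788, 1598 and 1371 without Lin- replicate 1, 2 and 3 because the rule then needs fewer libraries, on 526 to 1081 genes. Recovery in technical libraries was 73.5% in at least 2 of them, 87.5% without *Kmt2a* and *Aff1*, and 83.5% to 87.1% without 1 of them. By any base of the peak, 76.2% of sites were coding and 10.4% intronic. Without *Kmt2a* and *Aff1* the shares were 8.29% coding, 72.3% intronic, 8.12% 5′ UTR and 6.94% noncoding exon, and without 1 Lin- library 19.2% to 34.6% coding, 41.6% to 70.4% intronic and 3.69% to 14.3% 5′ UTR. CA-rich 6-mers were in 5.02% with 50 nt added on each side. A peak elsewhere in biological CD11b+ libraries was on 67.3% of hosts, and hosts with a CD11b+ mean normalized count below 1 and below 100 were 0.632% and 7.37%. Over all 6 Lin- libraries the within-library differences were 12.3 points (coding), -1.80 (3′ UTR), -9.18 (CA-rich 6-mer) and -22.7 (noncoding exon), each with p = 0.0312 in the exact sign-flip permutation test, against 0.25 over the 3 biological libraries. The other 3 are technical libraries and not independent samples, so the p-values over all 6 libraries cannot be read as evidence from 6 samples. As alternatives added after seeing the data, the intronic share with a 3′ splice site was 62.1% and 65.4% with peaks of replicates 2 and 3, and 49.0% to 69.6% without 1 library. No paired analysis was possible because the labels do not tie a Lin- library to a CD11b+ library, and no model compared the groups. Sites of 3 to 5 reads limit what the shallower libraries can show.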
